A study of Mus musculus with 4 samples.

Results

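The genes described here carry the type I interferon signal from the cell surface to the nucleus: the receptor chains Ifnar1 and Ifnar2, the receptor-bound kinase Jak1, the transcription factors Stat2 and Irf9, and 4 further interferon regulatory factors, Irf1, Irf3, Irf7 and Irf8. The 9 genes were taken by symbol from the 32285 genes of the count matrices, and each of the 9 was found. They were followed in mouse cerebella labelled Eftud2 cKO at postnatal day 14 (P14) and postnatal day 10 (P10), and in cerebella labelled WT at the same ages, with 1 droplet-based single-cell RNA library for each genotype and age. The GTPase made from Eftud2 belongs to the spliceosome, and the series title names Purkinje cells as the deficient cells. The labels give no Cre line, deleted exon, strain, sex or number of animals per library, so a library may hold 1 animal or several.

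Type I interferons bind a receptor made of Ifnar1 and Ifnar2, and the kinases Jak1 and Tyk2, which sit on the receptor tails, then phosphorylate STAT proteins. Stat2 with a partner STAT and Irf9 forms the interferon-stimulated gene factor complex, which binds the interferon-stimulated response element (ISRE) in front of its target genes, Irf7 and Stat2 among them. Irf3 and Irf7 lie on the other side of the loop, since they switch on interferon genes when a cell senses foreign or misplaced nucleic acid. Irf1 answers mainly to type II interferon through the gamma-activated sequence (GAS), and Irf8 is a lineage factor of microglia and other myeloid cells.

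The promoters carry these elements unequally. RefSeq promoters (GRCm38.p6) were found for 9 of 9 genes, with 12 start sites in all, and the 250 bases before each start were searched on both strands for the ISRE core (GAAA, any 2 bases, GAAA) and the GAS motif TTCNNNGAA; no window held both. Of the 9 genes Stat2 alone held the ISRE core, which 3.46% of 27025 mouse genes hold in at least 1 promoter. Ifnar2, Irf1 and Irf8 held a GAS match, which 8.13% of genes hold. The stretches with these matches are shown because these elements are the ones the STAT complexes bind, with the match in capitals, 5′ to 3′ on the plus strand.

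Stat2, ISRE core read on the minus strand, chr10:128270251-128270310: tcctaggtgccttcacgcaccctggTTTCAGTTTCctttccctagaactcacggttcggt

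Ifnar2, GAS, chr16:91372544-91372603: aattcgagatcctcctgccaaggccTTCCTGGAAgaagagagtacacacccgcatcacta

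Irf1, GAS, chr11:53769899-53769958: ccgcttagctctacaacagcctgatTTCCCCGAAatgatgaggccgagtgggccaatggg

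Irf8, GAS, chr8:120736162-120736221: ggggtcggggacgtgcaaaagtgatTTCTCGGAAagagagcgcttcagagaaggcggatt

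The Stat2 match began 222 bases before the start site, and the Ifnar2, Irf1 and Irf8 matches 214, 90 and 171 bases before it. Irf8 held a second GAS match 153 bases before its start. No match in these windows was found for Ifnar1, Jak1, Irf9, Irf7 and Irf3, and a match or its absence describes these letters only.

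The libraries of P14 cKO, P14 WT, P10 cKO and P10 WT kept 6148, 14876, 6417 and 13723 cells, with medians of 12209, 7699, 10872 and 8325 unique molecular identifiers (UMIs) per cell. Whole matrices held between 91091692 and 158017834 UMIs. Cells were put into classes by fixed marker genes, and 18.2%, 14.8%, 18.0% and 27.0% of the cells of those libraries met no class. Classes with at least 20 cells in each library of a comparison were used, which gave 11 classes at P14 and 10 at P10. No cell met the Purkinje gate in any library, so the cells named in the series title are not covered here. Levels are given in CPM, the usual scaling of a gene's UMIs to the total UMIs of the class. The 9 microglia markers summed to 10393 CPM in P14 cKO and 11838 CPM in P14 WT microglia. The same markers put cells into that class, so these sums are no check of the class or the tissue. Of the 103 P10 WT cells gated as interneurons 0 lay in a joint cluster of that class. Eftud2 over all cells was at 44.8 CPM in P14 cKO and 47.3 CPM in P14 WT, and at 55.7 CPM in P10 cKO and 52.1 CPM in P10 WT. Such sums hold few or no Purkinje cells and do not show whether the deleted part was gone, so they check no label. At P14 both matrices came from Cell Ranger 7.1.0, whereas P10 cKO came from version 7.0.1 and P10 WT from version 5.0.0, per the file headers. At P10 Xist, the RNA of the inactive X chromosome, was at 0.528 CPM in cKO and 1220 CPM in WT, so genotype, program version and sex-linked RNA cannot be told apart at that age. Between 7 and 76 cell barcodes were shared by any pair of libraries.

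With 1 library per genotype and age no difference at an age has a replicate check. Ratios below are log2 ratios of cKO over WT of CPM in a class, with 0.5 UMI added to each sum, and their 95% intervals hold counting error only. A ratio was measured where a gene had at least 20 UMIs over both libraries.

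At P14 Irf7 was higher in cKO in 8 of 8 classes measured, Irf9 in 9 of 10 and Stat2 in 8 of 10. The median ratio over all genes of a class lay between -0.08 (fibroblasts) and 0.04 (granule neurons). The share of all genes above 0 was not counted, and the classes come from the same libraries. Irf7 and Stat2 were at least 2-fold higher in microglia and border macrophages, of which the Stat2 ratio fell under 2-fold in microglia at equal depth (0.69) and in border macrophages taken by joint cluster (0.70). Ifnar1, Jak1 and Irf3 differed 2-fold in no class, and Ifnar2 in mural cells only. Of 86 gene and class pairs measured, 11 were at least 2-fold higher in cKO, where 4.06% of all genes in these classes were. The 11 comprised 5 classes for Irf7, 2 for Stat2, 2 for Irf9 and 1 each for Irf1 and Irf8. In oligodendrocytes lay 3 of them, for Irf7, Irf1 and Irf8. The median depth of that class was 1643 UMIs in P14 cKO and 26657 UMIs in P14 WT, and its part in these ratios was not tested. The P14 WT sums there were 2 UMIs for Irf1 and 1 UMI for Irf8. At least 2-fold lower in cKO were 2 pairs, where 2.45% of all genes were, and both lay in mural cells, of which P14 cKO had 25 and P14 WT 30. The median ratio of the 86 pairs was 0.15, against -0.01 over all genes. Over the 4 libraries, of 80 pairs of the 9 genes measured 22 had both cKO libraries above both WT libraries and 12 had both below, where 18.7% and 17.0% of all genes did.

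**Figure D1:**
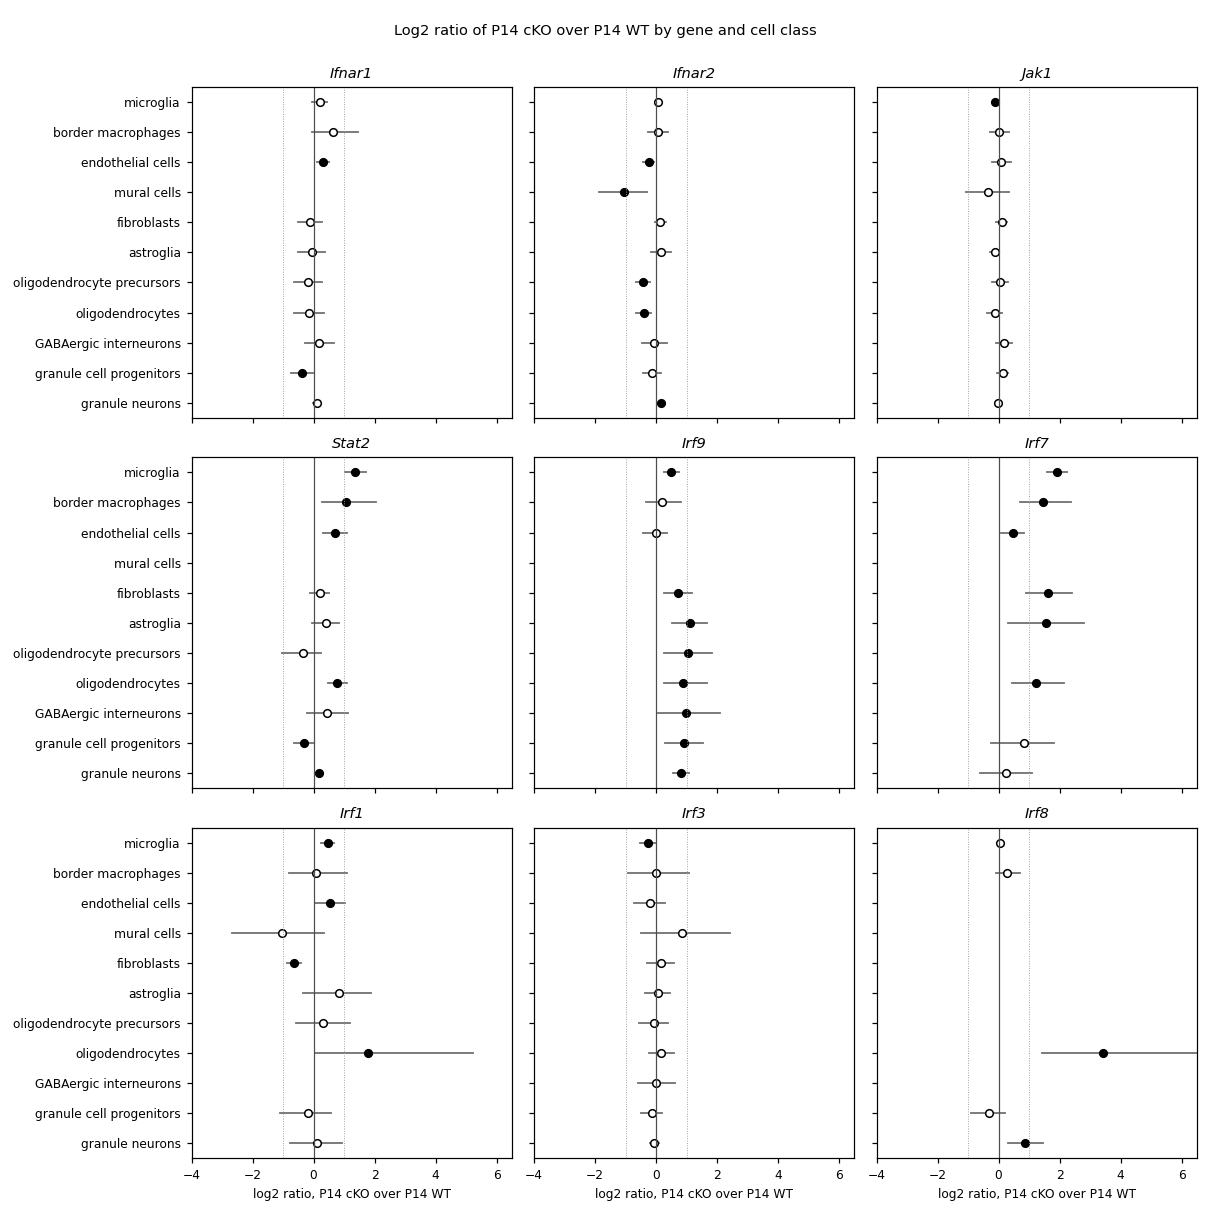
Log2 ratio of P14 cKO over P14 WT (horizontal axis) for the 9 genes, 1 panel each, in 11 cell classes (rows). Points are ratios, bars are 95% intervals for counting error, filled points have an interval that leaves out 0, and dotted lines mark a 2-fold difference in either direction. The points of Irf7 lie right of 0 in all 8 classes measured, whereas those of Jak1 lie between -0.35 and 0.16. The interval of Irf8 in oligodendrocytes runs past the right edge.

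Ifnar1 (ENSMUSG00000022967, chromosome 16, 91485238 to 91507441, plus strand, GRCm38) encodes the receptor chain that binds Tyk2. Over the 4 libraries it was highest in endothelial cells, with a median of 192 CPM and a range of 165.5 to 209.8 CPM, which did not overlap the next class. Border macrophages, microglia and fibroblasts followed at medians of 70.2, 59.98 and 59.4 CPM and overlapped each other. Granule neurons, the small excitatory neurons that fill the cerebellar cortex, were at 28.7 CPM. Endothelial cells thus stood alone among the 10 classes compared over the 4 libraries.

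In endothelial cells Ifnar1 was at 205 CPM in P14 cKO and 166 CPM in P14 WT, a ratio of 0.31 (0.10 to 0.52). At P10 it was at 209.8 CPM in cKO and 179 CPM in WT. Endothelial cells were the only class in which both cKO libraries lay above both WT libraries, as 20.3% of all genes did there. In P14 cells without any microglia marker UMI, which left 35 cKO and 132 WT endothelial cells, the ratio was -0.09. Of 10 classes measured at P14 none differed 2-fold.

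Ifnar2 (ENSMUSG00000022971, chromosome 16, 91372783 to 91405589, plus strand) encodes the chain that binds Jak1 and lies on the same chromosome as Ifnar1. Its highest levels were in endothelial cells, microglia, border macrophages and fibroblasts, at medians of 309, 243, 238 and 215 CPM, with ranges that overlapped. Oligodendrocyte precursors came next at 78.8 CPM, clear of the classes above and below. In microglia Ifnar2 was at 265 CPM in P14 cKO and 254 CPM in P14 WT, a ratio of 0.06 (-0.04 to 0.16).

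Lower values in cKO were seen for Ifnar2 in the oligodendrocyte lineage. In oligodendrocyte precursors it was at 69.0 CPM in P14 cKO and 93.1 CPM in P14 WT, and at 77.3 CPM in P10 cKO and 80.2 CPM in P10 WT. In oligodendrocytes it was at 37.3 CPM in P14 cKO and 49.4 CPM in P14 WT, and at 42.5 CPM in P10 cKO and 52.3 CPM in P10 WT. In both classes both cKO libraries lay below both WT libraries, where 20.4% of all genes did in precursors and 18.5% in oligodendrocytes, so such an order was common there. The P10 ratio in oligodendrocytes, -0.30, was 1.00 with cells thinned and 0.70 among cells with no microglia marker UMI. Both settings leave fewer UMIs, and the order there did not hold under them. In fibroblasts and astroglia both cKO libraries lay above both WT libraries, as 15.6% and 12.9% of all genes did there. In mural cells, the pericytes and smooth muscle of vessels, the sums were 23 UMIs in P14 cKO and 42 UMIs in P14 WT, a ratio of -1.05 (-1.87 to -0.30).

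Jak1 (ENSMUSG00000028530, chromosome 4, 101152367 to 101265282, minus strand), the kinase shared by the receptors of all interferon types, had ratios between -0.35 and 0.16 at P14. Microglia, border macrophages, fibroblasts and astroglia had medians of 243, 228, 196 and 192 CPM with overlapping ranges, and the next class, granule neurons, was at 85.7 CPM without overlap. In granule neurons, with 2877 UMIs in P14 cKO and 5209 UMIs in P14 WT, Jak1 was at 85.6 CPM in cKO and 85.8 CPM in WT, a ratio of -0.0038 (-0.07 to 0.06). In microglia it was at 252 CPM in P14 cKO and 274 CPM in P14 WT, a ratio of -0.12 (-0.22 to -0.02). No class differed 2-fold in Jak1 at either age.

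**Figure D2:**
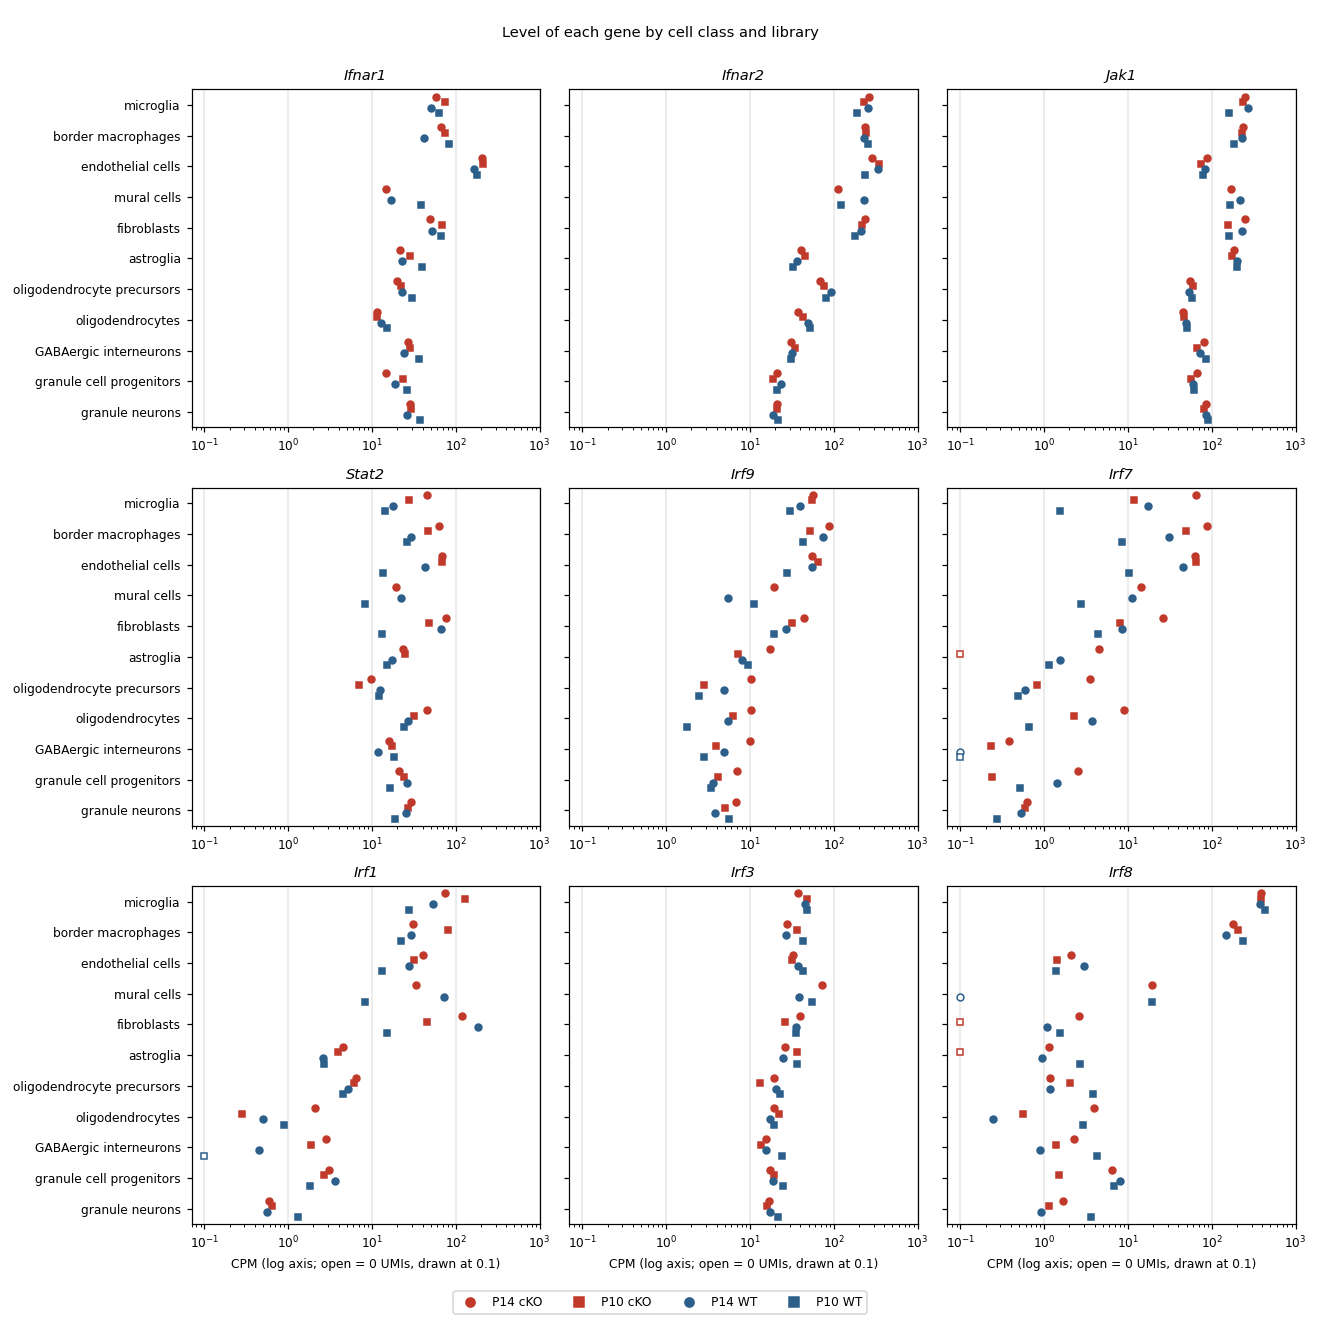
Level of the 9 genes in CPM (horizontal log axis) by cell class (rows) and library, with cKO in red above WT in blue and circles for P14, squares for P10; only classes with at least 20 cells in a library are drawn, and open symbols mark 0 UMIs. Jak1 in granule neurons runs from 81.9 to 89.6 CPM over the 4 libraries, whereas Irf7 in microglia runs from 1.54 to 65.3 CPM.

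Stat2 (ENSMUSG00000040033, chromosome 10, 128270559 to 128292849, plus strand) is the STAT that joins Irf9, and its promoter was the one with the ISRE core shown above. In microglia it was at 45.5 CPM in P14 cKO and 17.6 CPM in P14 WT, a ratio of 1.36 (1.03 to 1.71), from 275 and 99 UMIs. With each cell thinned to 2000 UMIs this ratio was 0.69, under 2-fold. In border macrophages it was at 62.4 CPM in P14 cKO and 28.9 CPM in P14 WT, a ratio of 1.07 (0.28 to 2.04), and within joint clusters in place of marker gates the ratio was 0.70. In endothelial cells it was at 68.8 CPM in P14 cKO and 42.3 CPM in P14 WT, a ratio of 0.70 (0.32 to 1.08). Thinned likewise, the endothelial ratio was 1.37. Fibroblasts were at 75.7 CPM in P14 cKO and 66.1 CPM in P14 WT, a ratio of 0.20 (-0.13 to 0.52).

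Among neural and glial cells, oligodendrocytes had 45.6 CPM in P14 cKO and 26.8 CPM in P14 WT, a ratio of 0.76 (0.46 to 1.08). That value depended on which cells entered, since it was -0.12 among oligodendrocytes with no microglia marker UMI, and the median depth of the class was 1643 UMIs in 474 P14 cKO cells and 26657 UMIs in 153 P14 WT cells. In granule neurons Stat2 was at 28.8 CPM in P14 cKO and 25.6 CPM in P14 WT, a ratio of 0.17 (0.05 to 0.29). In oligodendrocyte precursors both cKO libraries lay below both WT libraries, at 9.65 and 6.92 CPM in P14 cKO and P10 cKO, and 12.5 and 12.2 CPM in P14 WT and P10 WT. Of all genes in precursors 20.4% had this order.

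At P10 the endothelial difference was larger, with Stat2 at 67.5 CPM in cKO and 13.6 CPM in WT, a ratio of 2.32 (1.92 to 2.70). Fibroblasts had 47.8 CPM in P10 cKO and 12.98 CPM in P10 WT, and microglia 27.5 CPM in P10 cKO and 14.4 CPM in P10 WT. Endothelial cKO cells thus had 68.8 CPM at P14 and 67.5 CPM at P10, whereas endothelial WT cells had 42.3 CPM at P14 and 13.6 CPM at P10. Over the 4 libraries Stat2 had 6 classes of 10 in which both cKO libraries lay above both WT libraries: microglia, border macrophages, endothelial cells, astroglia, oligodendrocytes and granule neurons. Between 11.4% (microglia) and 24.5% (granule neurons) of all genes had this order in these classes.

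Irf9 (ENSMUSG00000002325, chromosome 14, 55603571 to 55610030, plus strand) gives the Stat2 complex its grip on DNA. Its span overlaps Rnf31 on the same strand by 123 bases, so UMIs there could come from either gene. In microglia Irf9 was at 56.4 CPM in P14 cKO and 39.9 CPM in P14 WT, a ratio of 0.50 (0.25 to 0.75), and at 54.5 CPM in P10 cKO and 29.7 CPM in P10 WT. Endothelial cells, where Stat2 was higher in cKO, had Irf9 at 55.1 CPM in P14 cKO and 55.6 CPM in P14 WT, a ratio of -0.01 (-0.41 to 0.37). The myeloid classes, endothelium and fibroblasts were separate from the other classes in level, with medians of 29.3 to 63.0 CPM against at most 8.74 CPM elsewhere.

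Both pairs at least 2-fold higher for Irf9 at P14 lay in classes with low levels of it. Astroglia had 17.1 CPM in P14 cKO and 7.96 CPM in P14 WT, a ratio of 1.11 (0.52 to 1.67), from 45 and 67 UMIs, but 7.21 CPM in P10 cKO and 9.51 CPM in P10 WT, a ratio of -0.36 (-1.57 to 0.68). Oligodendrocyte precursors had 10.2 CPM in P14 cKO and 4.95 CPM in P14 WT, a ratio of 1.04 (0.27 to 1.85). Granule neurons had 6.84 CPM in P14 cKO and 3.85 CPM in P14 WT, a ratio of 0.83 (0.56 to 1.10). The precursor ratio was 0.43 among cells with no microglia marker UMI, and at P10 it was 0.26 (-1.33 to 1.59). At P10 the pairs at least 2-fold higher lay instead in endothelial cells, with 65.4 CPM in cKO and 27.5 CPM in WT, and in oligodendrocytes, with 22 UMIs in cKO and 8 UMIs in WT. In 9 of 10 classes measured at P14 Irf9 was higher in cKO, and in 8 of them the counting interval lay above 0. The share of all genes with such an interval was not counted, so how common it was is not known.

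Depth per cell differed between the granule neurons of the genotypes, so shares were also taken at equal depth. With each cell thinned to 2000 UMIs, 49 of 2769 P14 cKO granule neurons (1.77%, 1.31% to 2.33%) and 60 of 7926 P14 WT granule neurons (0.757%, 0.578% to 0.973%) had an Irf9 UMI, and the ratio was 1.27. Unthinned, the shares were 6.61% in P14 cKO and 2.61% in P14 WT, at median depths of 11918 and 7023 UMIs. Irf8, a gene these neurons are not known to use, was found after thinning in 0.144% of P14 cKO and 0.151% of P14 WT granule neurons; a background share of Irf9 itself was not measured. Microglia markers summed to 33.2 CPM in P14 cKO and 22.1 CPM in P14 WT granule neurons, and among granule neurons with none of their UMIs the Irf9 ratio was 0.87. At P10 Irf9 in granule neurons was at 5.08 CPM in cKO and 5.60 CPM in WT, a ratio of -0.15 (-0.53 to 0.25).

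Irf7 (ENSMUSG00000025498, chromosome 7, 141262706 to 141266481, minus strand), the factor that amplifies interferon production once induced, had the highest median ratio of the 9 genes at P14, 1.33. Its span overlaps Phrf1 on the other strand by 45 bases. In microglia it was at 65.3 CPM in P14 cKO and 17.3 CPM in P14 WT, a ratio of 1.91 (1.59 to 2.25), from 395 and 97 UMIs. In border macrophages it was at 86.9 CPM in P14 cKO and 31.0 CPM in P14 WT, a ratio of 1.45 (0.71 to 2.37). In fibroblasts it was at 26.1 CPM in P14 cKO and 8.40 CPM in P14 WT, a ratio of 1.62 (0.90 to 2.42). All 8 classes measured at P14 were higher in cKO for Irf7, 5 of them at least 2-fold.

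Microglial ratios were smaller at equal depth, where the sums hold fewer UMIs and no interval was taken for the ratios. P14 cKO microglia had a median of 16772 UMIs and P14 WT microglia of 8676 UMIs, and with each cell thinned to 2000 UMIs the Irf7 ratio was 1.10 and that of Stat2 0.69. After thinning 33 of 347 P14 cKO microglia (9.51%, 6.64% to 13.1%) and 21 of 592 P14 WT microglia (3.55%, 2.21% to 5.37%) had an Irf7 UMI, and the intervals did not overlap. For Stat2 the thinned shares were 4.90% (2.88% to 7.73%) in P14 cKO and 3.04% (1.81% to 4.76%) in P14 WT microglia, whose intervals overlap. In border macrophages an Irf7 UMI was found after thinning in 20.2% of 114 P14 cKO cells (13.2% to 28.7%) and 9.09% of 55 P14 WT cells (3.02% to 20.0%), which also overlap. Unthinned, the Irf7 shares in microglia were 30.9% in P14 cKO and 8.40% in P14 WT. In granule neurons, where Irf7 was near 0, the thinned shares were 0.108% in P14 cKO and 0.126% in P14 WT. The step left out 16 cKO and 51 WT microglia with fewer UMIs.

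Targets of the complex were also counted in microglia with and without Irf7 RNA. The 10 targets listed for it were Isg15, Ifit1, Ifit2, Ifit3, Ifit3b, Rtp4, Oasl2, Xaf1, Bst2 and Ifi44. At 2000 UMIs per cell 30 of 33 P14 cKO microglia with an Irf7 UMI (90.9%, 75.7% to 98.1%) and 18 of 21 such P14 WT microglia (85.7%, 63.7% to 97.0%) had a UMI of at least 1 target. Among microglia without an Irf7 UMI the shares were 70.4% of 314 P14 cKO cells (65.0% to 75.4%) and 38.0% of 571 P14 WT cells (34.0% to 42.1%). The intervals of the genotypes overlapped among cells with Irf7 and did not among cells without it. The split was not seen throughout: in P10 WT microglia 1 of 4 cells with Irf7 and 259 of 1057 cells without it had a target UMI, and in P14 cKO endothelial cells the share was 55.6% of 9 with (21.2% to 86.3%) and 85.5% of 62 without (74.2% to 93.1%). For Stat2 in P14 cKO microglia it was 76.5% of 17 cells with a UMI and 72.1% of 330 without. Cells of 1 library are not replicates, so these shares carry no test of genotype.

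**Figure D3:**
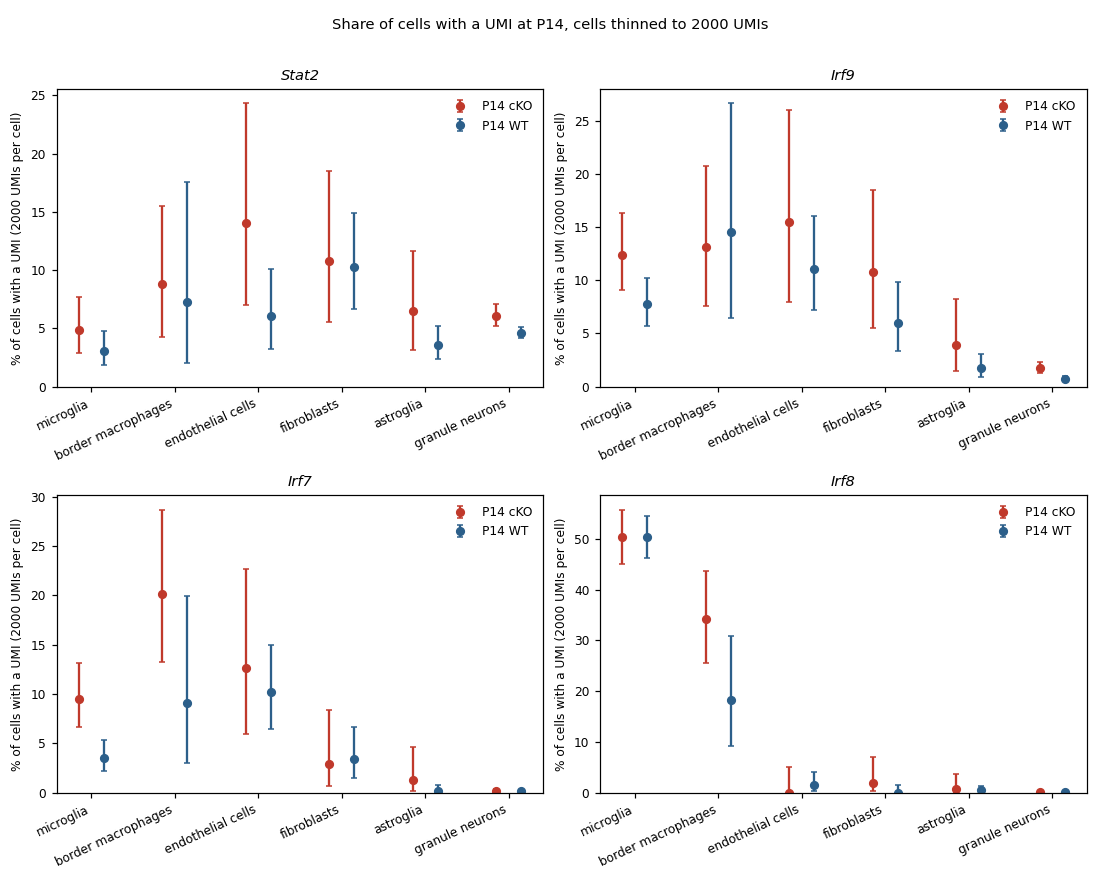
Share of cells with a UMI of Stat2, Irf9, Irf7 or Irf8 at P14 (vertical axis, percent) in 6 classes, cKO in red left of WT in blue, with each cell thinned to 2000 UMIs. Bars are exact binomial 95% intervals for counting error. The Irf7 share is 9.51% in cKO and 3.55% in WT microglia, whereas the Irf8 share is 50.4% in cKO and 50.3% in WT microglia.

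Irf7 was also measured in vascular and glial classes. Endothelial cells had 63.3 CPM in P14 cKO and 45.9 CPM in P14 WT, a ratio of 0.47 (0.07 to 0.85), which was -0.56 among the 35 cKO and 132 WT cells without a microglia marker UMI. Microglia markers summed to 59.9 CPM in all P14 cKO and 64.3 CPM in all P14 WT endothelial cells, and 7 and 9 of the 9 markers had a UMI. Single markers went both ways there. P2ry12 and Tmem119 were at 1.38 and 0 CPM in P14 cKO and at 2.42 and 1.51 CPM in P14 WT. Cx3cr1 was at 7.57 CPM in P14 cKO and 6.95 CPM in P14 WT. Oligodendrocytes had 8.90 CPM in P14 cKO and 3.73 CPM in P14 WT, and astroglia 12 UMIs in P14 cKO and 13 UMIs in P14 WT, at 4.56 and 1.54 CPM. Microglia markers summed to 81.7 CPM in P14 cKO and 53.2 CPM in P14 WT oligodendrocytes, and to 66.5 CPM in P14 cKO and 47.8 CPM in P14 WT astroglia; their part in these Irf7 values was not tested. In fibroblasts the thinned shares, 3 of 102 P14 cKO cells and 8 of 234 P14 WT cells, went against the CPM and gave no order.

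At P10 Irf7 was lower in WT than at P14 in microglia, border macrophages and endothelial cells, and the ratios of these classes were larger. Microglia had 11.9 CPM in P10 cKO and 1.54 CPM in P10 WT, from 22 and 13 UMIs. Endothelial cells had 65.4 CPM in P10 cKO and 10.2 CPM in P10 WT, a ratio of 2.68 (2.26 to 3.10). Border macrophages had 49.8 CPM in P10 cKO and 8.43 CPM in P10 WT, a ratio of 2.56 (2.02 to 3.10). Classes under the cut of 20 UMIs at P10 went both ways, each with an interval that holds 0. Ratios there were -0.94 in granule cell progenitors, -2.02 in astroglia and -1.02 in interneurons. They were 0.82 in oligodendrocyte precursors and 1.64 in oligodendrocytes. In microglia P14 WT lay above P10 cKO, so the genotypes overlapped over the 4 libraries there, as in fibroblasts, oligodendrocytes and granule cell progenitors. In border macrophages, endothelial cells and granule neurons both cKO libraries lay above both WT libraries, as 15.4%, 20.3% and 24.5% of all genes did there.

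Far more genes passed 2-fold at P10 than at P14, whatever their function. Of 77 gene and class pairs measured at P10, 11 were at least 2-fold higher in cKO and 4 at least 2-fold lower, where 20.9% and 5.13% of all genes were. The members' share of higher pairs was thus below that of all genes at P10 and above it at P14. Of the span of Jak1, 93.6% is intronic, and of Ifnar2 89.9%, with exons pooled over all annotated transcripts of a gene. Each base of Irf7 lies in an exon of at least 1 annotated transcript, which does not show how its reads were counted. Whether the program versions counted intronic reads alike is not given in the sources used here, and its part in the P10 ratios was not tested.

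Irf1 (ENSMUSG00000018899, chromosome 11, 53770014 to 53778374, plus strand) is an early response gene of gamma interferon and of inflammatory cytokines. In microglia it was at 74.1 CPM in P14 cKO and 53.5 CPM in P14 WT, a ratio of 0.47 (0.26 to 0.69), and at 130.0 CPM in P10 cKO and 27.6 CPM in P10 WT. Fibroblasts went the other way at P14, with 119.5 CPM in cKO and 186 CPM in WT, a ratio of -0.64 (-0.87 to -0.41). At P10 fibroblasts had 44.9 CPM in cKO and 15.0 CPM in WT, a ratio of 1.59 (1.18 to 1.96). Both cKO libraries lay above both WT libraries for Irf1 in 5 of 8 classes measured, where 18.7% of all gene and class pairs did.

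Low sums marked the other Irf1 differences. Oligodendrocytes had 20 UMIs in P14 cKO and 2 UMIs in P14 WT, a ratio of 1.79 (0.03 to 5.22). Mural cells had 7 UMIs in P14 cKO and 13 UMIs in P14 WT, a ratio of -1.05 whose interval of -2.66 to 0.34 holds 0. A smaller change was not detectable at this depth in either class.

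Irf3 (ENSMUSG00000003184, chromosome 7, 44997648 to 45002848, plus strand) is present before a signal arrives and is activated by phosphorylation. Its span overlaps Bcl2l12 on the other strand by 1065 bases. In microglia Irf3 was at 37.0 CPM in P14 cKO and 44.7 CPM in P14 WT, a ratio of -0.27 (-0.54 to -0.01), and in granule neurons at 16.7 CPM in P14 cKO and 17.4 CPM in P14 WT, a ratio of -0.06 (-0.21 to 0.09). No class differed 2-fold at either age. At P10 the counting interval lay below 0 in 4 of 10 classes, with no share over all genes counted beside it. In level microglia led at a median of 46.4 CPM and overlapping ranges down to astroglia at 30.9 CPM.

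Irf8 (ENSMUSG00000041515, chromosome 8, 120736358 to 120756694, plus strand) was set apart by cell class. In microglia it was at 385 CPM in P14 cKO and 373 CPM in P14 WT, a ratio of 0.04 (-0.04 to 0.13), and at 387 CPM in P10 cKO and 429 CPM in P10 WT. In border macrophages it was at 180.5 CPM in P14 cKO and 147 CPM in P14 WT, and at 207 CPM in P10 cKO and 234 CPM in P10 WT. Microglia, border macrophages and the rest formed levels without overlap, with no more than 7.99 CPM in the other 8 of the 10 classes. Thinned to 2000 UMIs, 50.4% of P14 cKO and 50.3% of P14 WT microglia had an Irf8 UMI.

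Outside myeloid cells Irf8 was low, and granule cell progenitors came next at a median of 6.64 CPM, overlapping the class below. They had 6.37 CPM in P14 cKO and 7.99 CPM in P14 WT, a ratio of -0.31 (-0.91 to 0.22). At P10 they had 1.51 CPM in cKO and 6.91 CPM in WT, a ratio of -2.16 (-2.96 to -1.52). Their microglia markers summed to 38.7 and 23.4 CPM in P14 cKO and P14 WT, and to 21.2 and 34.6 CPM in P10 cKO and P10 WT. Granule neurons had 1.67 CPM in P14 cKO and 0.906 CPM in P14 WT, and 1.13 CPM in P10 cKO and 3.67 CPM in P10 WT. Microglia markers in the same cells summed to 33.2 CPM in P14 cKO and 22.1 CPM in P14 WT, and to 22.1 CPM in P10 cKO and 39.7 CPM in P10 WT, with 9 of 9 markers detected in each. In granule neurons both measures were higher in cKO at P14 and lower in cKO at P10. In granule cell progenitors both were lower in cKO at P10, but at P14 Irf8 was lower and the marker sum higher in cKO. The part of microglial RNA in the Irf8 values was not tested. Oligodendrocytes had 38 Irf8 UMIs in 12 of 474 P14 cKO cells and 1 UMI in 153 P14 WT cells, a ratio of 3.43 (1.44 to 9.34), and among cells with no microglia marker UMI the ratio was 4.09.

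**Figure D4:**
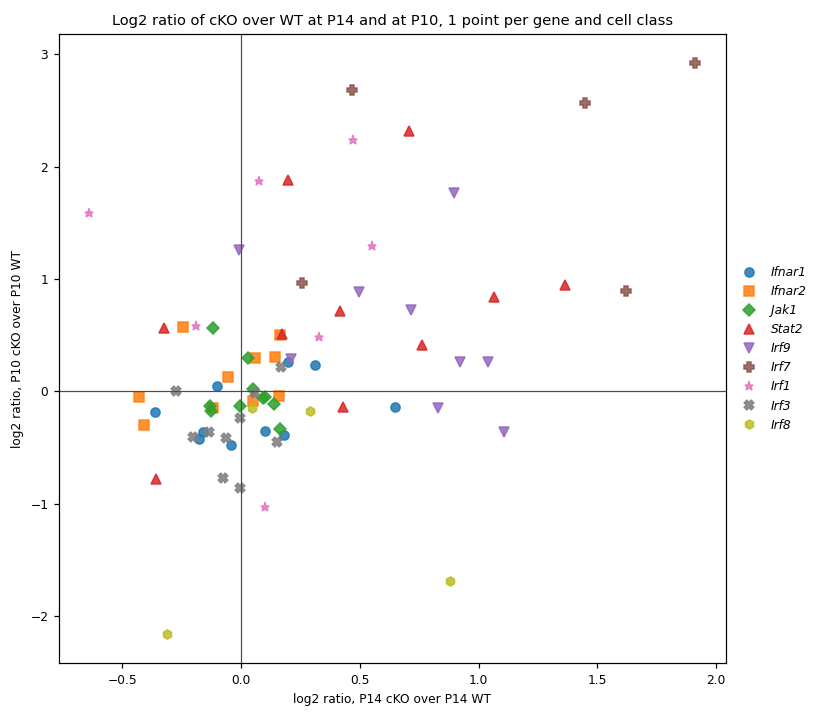
Log2 ratio of cKO over WT at P14 (horizontal axis) and at P10 (vertical axis) for each gene and class measured at both ages, 75 points in all, with 1 colour and symbol per gene. In 30 points both ratios lie above 0 and in 18 both lie below 0; the remaining 18 are above 0 at P14 alone and 9 at P10 alone. Irf7 lies above 0 at both ages in every class drawn. Classes with under 20 Irf7 UMIs at an age are not drawn.

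Fitted over both ages, no member passed the test, which does not show that the genotypes were alike. The genotype term of edgeR's quasi-likelihood test, with age as a second term and 1 residual degree of freedom, gave 0 of 80 member and class pairs with an adjusted p under 0.05, and 0.0% of the 123783 gene and class pairs tested passed. By unadjusted p, 7 of the 80 lay under 0.05, where 1.66% of all pairs did, and DESeq2 called 0 of 79 members, where 0.0935% of all pairs passed. The lowest was Irf7 in microglia, with a log2 change of 2.33 ± 0.43 and an edgeR adjusted p of 0.840. The value after ± is an approximate SE, the log2 change divided by the square root of the F statistic. Irf7 in border macrophages followed at 2.02 ± 0.45 with an edgeR adjusted p of 0.999, and Stat2 in endothelial cells at 1.43 ± 0.43 with an edgeR adjusted p of 0.760.

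The remaining pairs under an unadjusted 0.05 were Stat2 in microglia, Irf7 and Irf1 in endothelial cells and Irf7 in fibroblasts. Their edgeR log2 changes were 1.14, 1.49, 0.84 and 1.21, all higher in cKO. With no filter on low counts edgeR called 4 of 90 members, where 0.31% of all pairs passed: Irf7 in microglia, border macrophages and endothelial cells, and Stat2 in endothelial cells. Their adjusted p by edgeR without the filter lay between 0.00528 and 0.0421.

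The wider pathway at P14 was described by lists set beside the 9 genes. A pair is again a gene in a class with at least 20 UMIs. For each list here and below, the shares over all genes in these classes were 4.06% at least 2-fold higher and 2.45% at least 2-fold lower. Targets of the Stat2 and Irf9 complex were at least 2-fold higher in cKO in 54 of 81 pairs and 2-fold lower in 2, with a median ratio of 1.36. In microglia 9 of 10 targets were at least 2-fold higher, where 3.69% of all genes were. The summed level of the targets was 1169 CPM in P14 cKO and 444 CPM in P14 WT. In astroglia the sum was 118 CPM in P14 cKO and 30.3 CPM in P14 WT, and in granule neurons 8.62 CPM in P14 cKO and 6.29 CPM in P14 WT. The 4 targets with the largest ratios were all from oligodendrocytes: Ifit3, an antiviral RNA-binding protein, had 194 UMIs in P14 cKO and 2 UMIs in P14 WT, Ifit3b 100 and 0, Ifit1 106 and 3, and Oasl2 155 and 5. The cells of this class were unlike in the genotypes: the median depth was 1643 UMIs in P14 cKO and 26657 UMIs in P14 WT, and 342 of 474 P14 cKO cells and 53 of 153 P14 WT cells lay in a joint cluster of the class. The part of this in the ratios was not tested.

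The other receptor and kinase genes moved little. Receptors and kinases of type II and III interferon had 0 of 53 pairs at least 2-fold higher and 1 lower, with a median of -0.01. Ifngr1, the ligand-binding chain of the gamma interferon receptor, was at 35.8 CPM in P14 cKO and 56.8 CPM in P14 WT endothelial cells, and Tyk2, the kinase of Ifnar1, was at 4.70 CPM in P14 cKO and 10.2 CPM in P14 WT fibroblasts. Jak3 in border macrophages and Il10rb in mural cells had ratios of 0.85 and -0.75 with intervals that hold 0.

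Further STATs had 3 of 35 pairs at least 2-fold higher and 1 lower, with a median of 0.31. Stat3, a target of cytokines of the interleukin 6 family, was at 241 CPM in P14 cKO and 138 CPM in P14 WT mural cells. Stat5a in fibroblasts had 5 UMIs in P14 cKO and 21 UMIs in P14 WT. Stat6 in granule cell progenitors and Stat4 in granule neurons had ratios of 1.09 and 0.78 with intervals that hold 0.

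Further interferon regulatory factors had 3 of 51 pairs at least 2-fold higher and 0 lower, with a median of -0.02. Irf4, a lymphoid factor, had 28 UMIs in P14 cKO and 2 UMIs in P14 WT granule neurons, at 0.833 and 0.0329 CPM. Irf5, a myeloid factor, had 24 UMIs in P14 cKO and 10 UMIs in P14 WT granule cell progenitors. Microglia markers summed to 38.7 CPM in P14 cKO and 23.4 CPM in P14 WT progenitors. The cofactor genes Irf2bpl in oligodendrocytes and Irf2bp1 in fibroblasts had ratios of 0.79 and -0.69.

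Negative regulators had 9 of 71 pairs at least 2-fold higher and 2 lower, with a median of -0.03. Usp18, which removes Isg15 from proteins and shuts the receptor down, had 20 UMIs in P14 cKO interneurons and 0 in P14 WT interneurons. Ptpn6 in granule cell progenitors was at 7.64 CPM in P14 cKO and 2.58 CPM in P14 WT. Socs3, an inhibitor of cytokine receptors, was at 13.8 CPM in P14 cKO and 31.4 CPM in P14 WT endothelial cells, a ratio of -1.16 (-1.96 to -0.49), and Pias4 in astroglia had a ratio of -0.73.

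Sensors of nucleic acid and their adaptors had 11 of 74 pairs at least 2-fold higher and 2 lower, with a median of 0.07; 12 of the 15 listed symbols were found. Ifih1, a sensor of double-stranded RNA, was at 9.88 CPM in P14 cKO and 3.33 CPM in P14 WT astroglia, a ratio of 1.57 (0.74 to 2.39). Ddx58, a sensor of RNA ends, had 27 UMIs in P14 cKO and 2 UMIs in P14 WT interneurons. Mavs, the adaptor of both, had 7 UMIs in P14 cKO and 38 UMIs in P14 WT endothelial cells, and Myd88 in granule cell progenitors had a ratio of 1.13 (-0.22 to 2.39).

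Interferon genes were close to undetected. Over all cells Ifnb1 had 1 UMI in P14 cKO and 5 UMIs in P14 WT, and 0 in both P10 libraries. Ifna2 had 1 UMI in P14 cKO, Ifnl2 1 in P10 cKO, and Ifna1, Ifna4, Ifne and Ifnl3 had 0 in each library, which allows up to 3 UMIs per library. Ifnk, an epithelial type I interferon, had 11 UMIs in P14 cKO and 9 in P14 WT, and 13 in P10 cKO and 1 in P10 WT. Ifng had 4 UMIs in P14 cKO and 55 in P14 WT, and 12 in P10 cKO and 6 in P10 WT; of the P14 WT UMIs 24 lay in granule cell progenitors, where P14 cKO had 0.

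Likeness in level was taken over 47 class and library values of log2(CPM + 1), which share libraries and depth, among 12798 genes, and is a description. The closest gene to Irf7 was Parp14, with a Pearson r of 0.91, followed by the sensor Ddx58 at 0.91. Irf9 was closest to Tapbp, a chaperone of antigen presentation, at 0.94, and to Igtp, an interferon-induced GTPase, at 0.92. Ifnar2 was closest to Il10rb, a chain of the interleukin 10 and type III interferon receptors, at 0.94. Irf8 was closest to Was and Fcgr3, genes of blood-derived cells, at 0.96 each. Stat2 had no near neighbour, with 0.74 for Stx5a at most. For Ifnar1, Jak1, Irf1 and Irf3 the closest were Def6, Txnip, Lrrk1 and Myd88, at 0.84, 0.87, 0.92 and 0.88.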

How the data were processed

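Each library was deposited as raw counts, in which a value is the number of UMIs of 1 gene in 1 barcode. Processing notes of the submitters list Cell Ranger 3.0.2 and Seurat 4.1.3 with mm10; the matrix headers carry later Cell Ranger versions, given above per the file headers. Barcodes with at least 500 genes and at most 20% mitochondrial UMIs were kept, and Scrublet doublets were left out at 1 score threshold of 0.2196. A cell joined the class whose markers were detected at the highest share, if this was at least 40%, at least 15 percentage points above the next class, and at least 3 markers; cells that met the erythroid gate were not compared. UMIs were summed by class and library. Levels have exact Poisson, ratios exact conditional binomial and shares exact Clopper-Pearson intervals at 95%. The both-age fit used edgeR 4.0.16 (R 4.3.3) with TMM factors, filterByExpr and Benjamini-Hochberg adjustment within a class. DESeq2 1.42.0 was the other tool. The edgeR fit and the ratios were tried on simulated data, whereas DESeq2 was not. At the dispersion fitted to these data edgeR recovered no planted change in microglia or granule neurons. In the other classes fitted it recovered only part of the planted changes, the largest share in endothelial cells. Coordinates are from GENCODE vM21. Python 3.11.15, SciPy 1.17.1, Scanpy 1.11.5 and matplotlib 3.10.9 were used.

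The members, markers, lists and alternatives were chosen with earlier results of these data known, so no list is independent support. Named pathway genes are the up to 4 per list with the largest ratio in any class at P14, with at least 20 UMIs, and every listed interferon with a UMI; of the 3 genes most like each member in level only the closest are named. Nothing says that a library is 1 animal, so spread between animals is not known.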

Additional observations from a re-analysis of the deposited data

Results flagged for a closer look

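In 5 gene and class pairs the genotypes differed in opposite directions at P14 and P10, with both counting intervals leaving out 0. Each side rests on 1 library per genotype, the difference between the ages was not tested, and at P10 the genotypes also differed in program version and sex-linked RNA.

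Irf1 in fibroblasts had a log2 ratio of cKO over WT of -0.64 at P14 and 1.59 at P10. Irf8 in granule neurons had 0.88 at P14 and -1.69 at P10, at levels under 4 CPM. Stat2 in granule cell progenitors had -0.33 at P14 and 0.57 at P10. With cells thinned to 2000 UMIs the P14 value was 0.47, from fewer UMIs and with no interval taken, so its direction at P14 is not settled. Jak1 in microglia had -0.12 at P14 and 0.56 at P10. Ifnar2 in endothelial cells had -0.24 at P14 and 0.58 at P10.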

How the results depend on the processing

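The 11 pairs at least 2-fold higher at P14 became 7 with cells thinned to 2000 UMIs, which left 56 pairs, and 18 with no minimum of 20 UMIs; the other settings gave 8 to 12. The 2 lower pairs became 1 in joint clusters, 0 with at least 1000 genes per cell, where mural cells fell under 20 cells, and 1 among cells with no microglia marker UMI. Members called over both ages became 4 of 90 with no filter on low counts, against 0 of 80. Single ratios at P14 lay within the counting interval of the reported ratio in 32 of 56 pairs when thinned, 56 of 68 with no microglia marker UMI and 74 of 79 in joint clusters, and in each pair under the other settings. Of ratios whose interval leaves out 0, those that changed sign were, among cells with no microglia marker UMI, Irf7 (-0.56) and Ifnar1 (-0.094) in endothelial cells and Stat2 (-0.12) in oligodendrocytes, and, thinned, Stat2 in granule cell progenitors (0.47); at P10 Ifnar2 in oligodendrocytes was 1.00 thinned and 0.70 with no microglia marker UMI. The cause was not tested. With P14 or P10 libraries alone no residual degree of freedom is left, so these give values with no test. No paired analysis was possible because the labels carry no replicate numbers and each group has 1 library. Irf9 in border macrophages, whose interval holds 0, was 0.21 at P14 and -0.53 thinned. Depth limits Irf7 and Irf1 in granule neurons, with at most 34 UMIs in a P14 library.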
